A study of Mus musculus with 57 samples.

Results

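The inhibitory interneuron genes Gad1, Gad2, Slc32a1, Sst, Vip, Npy, Calb2, Cck and Reln were examined for 3 histone modifications in brain cortex and in gastrocnemius, the calf muscle that contains no neuron cell bodies. They are 9 of the 26089 genes with a curated RefSeq start on the autosomes and X of the mm10 build. They were named as a list and not ranked by a measured value, but with earlier results of these data known. The tissues came from PSAPP mice, which carry a mutant human presenilin 1 and a chimeric mouse/human amyloid precursor protein (Mo/HuAPP695swe) and accumulate Aβ plaques. All mice were 13 months old, had been kept singly on a modified AIN-93 diet, and belonged to both sexes, which were pooled here. There was no treatment and no mouse without the transgenes, and the contrast made here is between the tissues. Each of H3K4me3, H3K27ac and H3K27me3 was profiled by ChIP-seq in 9 cortex and 10 gastrocnemius libraries, 57 in all, from 10 mice by the codes in the deposited names.

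Cortical inhibitory interneurons are a minority of the neurons of the cortex and release GABA, which the enzymes GAD67 (Gad1) and GAD65 (Gad2) make from glutamate and the transporter VGAT (Slc32a1) loads into vesicles. Subtypes of these cells are told apart by the neuropeptides somatostatin (Sst), VIP (Vip), neuropeptide Y (Npy) and cholecystokinin (Cck), by the calcium-binding protein calretinin (Calb2) and by the secreted glycoprotein reelin (Reln). Cck is also made by many excitatory cortical neurons. H3K4me3 marks the starts of active or poised genes, H3K27ac marks active promoters and enhancers, and H3K27me3 is deposited by Polycomb complexes over silent genes, often developmental ones with CpG-rich starts. Whole tissue was used, so peaks of different marks over the same bases may come from the same cells or from different ones, and fewer marked cells cannot be told apart from less of a mark per cell.

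Windows and bodies follow their curated RefSeq records. Gad1 (chr2:70562129-70602014, plus strand, 39.9 kb), Gad2 (chr2:22622327-22693877, plus, 71.6 kb) and Slc32a1 (chr2:158610758-158615747, plus, 4.99 kb) share chromosome 2. The peptide genes are short, with Sst at chr16:23889581-23890844 (minus), Vip at chr10:5639218-5647617 (plus), Npy at chr6:49822710-49829507 (plus) and Cck at chr9:121489824-121495694 (minus). Calb2 lies at chr8:110142526-110168212 (minus), and Reln, the longest at 460 kb, at chr5:21884454-22344705 (minus).

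The promoter sequences show how differently the members are built around the start. Each run below holds the 250 bases before the transcription start (RefSeq, GRCm38.p6), with CpG dinucleotides in capitals, and the 4 shown span the range from most to fewest CpG and from all marks to H3K27me3 alone.
Reln, chr5:22344706-22344955, minus strand: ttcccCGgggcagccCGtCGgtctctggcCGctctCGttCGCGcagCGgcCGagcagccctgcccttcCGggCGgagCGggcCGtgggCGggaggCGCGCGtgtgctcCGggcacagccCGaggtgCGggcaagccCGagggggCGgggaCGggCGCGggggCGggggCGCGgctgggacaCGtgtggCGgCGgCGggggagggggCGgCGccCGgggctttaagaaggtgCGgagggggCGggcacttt
Gad1, chr2:70561879-70562128, plus strand: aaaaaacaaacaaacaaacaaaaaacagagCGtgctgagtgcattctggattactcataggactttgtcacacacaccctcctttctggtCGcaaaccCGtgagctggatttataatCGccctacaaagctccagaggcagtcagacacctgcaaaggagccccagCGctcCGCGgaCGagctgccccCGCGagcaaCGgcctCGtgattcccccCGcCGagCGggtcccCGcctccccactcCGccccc
Sst, chr16:23890845-23891094, minus strand: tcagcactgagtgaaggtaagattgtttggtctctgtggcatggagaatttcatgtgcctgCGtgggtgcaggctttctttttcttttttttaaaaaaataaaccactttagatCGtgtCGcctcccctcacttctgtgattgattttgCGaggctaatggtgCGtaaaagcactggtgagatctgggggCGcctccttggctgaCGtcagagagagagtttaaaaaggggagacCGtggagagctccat
Vip, chr10:5638968-5639217, plus strand: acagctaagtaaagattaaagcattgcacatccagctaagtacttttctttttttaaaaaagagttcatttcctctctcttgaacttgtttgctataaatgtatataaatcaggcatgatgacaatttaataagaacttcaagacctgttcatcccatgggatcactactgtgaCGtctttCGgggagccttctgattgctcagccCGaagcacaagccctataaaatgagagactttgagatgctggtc
Reln held 37 CpG in these 250 bases, more than 97.8% of the 32851 promoters of the same length. Npy held 21, Gad1 17, Gad2 13, Slc32a1 12, Cck 9, Sst 8 and Vip 3, and the median promoter held 6. Among these 8 genes, the 6 with an H3K4me3 peak in every cortex library are the 6 with 9 CpG or more, while Sst had such a peak in 4 of 9 libraries and Vip in none. The cyclic AMP response element TGACGTCA, a palindrome that reads the same on both strands, was found in Sst alone among these 8 promoters, starting 48 bases before the start, and in 1.55% of all promoters. Its shorter form TGACG, searched on both strands and contained in the full element, was present in Gad2, Cck, Vip and Sst and in 17.8% of all promoters. Promoters of 8 members were matched by symbol.

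Values are given as RPM, the reads of called peaks that fall in a window per M (mega) reads in the autosomal peaks of the library. The start window reached 1 kb to either side of the annotated start, and the gene body was the whole annotated gene. Peaks were called separately in each library and only peaks were deposited, so a library without a peak has no value and was entered at 0, although it may hold reads. The least dense peak of a library would give 1.98 to 2.96 RPM over a start window for H3K4me3, 1.69 to 3.42 for H3K27ac and 2.37 to 6.33 for H3K27me3, so a 0 stands for anything up to about that level. Libraries held 9.16 to 18.99 M reads in all peaks, X included, for H3K4me3, 3.94 to 27.3 M for H3K27ac and 2.99 to 18.2 M for H3K27me3. The shallowest H3K27ac library was cortex replicate 9, and the deepest H3K27me3 library, gastrocnemius replicate 5, gave the lowest H3K27me3 level at the start among gastrocnemius libraries at 8 of the 9 members. As a check of the tissues, all 5 neuron markers had more H3K4me3 and H3K27ac at the start in cortex, with summed H3K4me3 of 125 to 171 RPM in cortex against 18.4 to 23.6 in muscle. Of 7 skeletal muscle markers 6 had less H3K4me3 in cortex, and Mylpf had more. Of 4 astrocyte markers, Gfap, Slc1a2 and Aldh1l1 had H3K4me3 and H3K27ac at the start in 9 of 9 cortex libraries and Aqp4 had neither in any library, with 2 called higher and 1 lower in cortex for H3K4me3. The endothelial markers were lower in cortex, 3 of 3 for both marks.

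H3K4me3 at the start was called higher in cortex for the 8 members that could be tested. Gad1, Calb2, Sst and Cck had a peak in at most 1 gastrocnemius library, entered the test through cortex only and could hardly be called in the other direction, whereas Gad2, Slc32a1, Npy and Reln had peaks in at least 8 libraries of each tissue. Vip had no H3K4me3 peak at its start in any of the 19 libraries. Of the 16728 genes tested, 59.0% were higher in cortex by the same rule (edgeR quasi-likelihood test, Benjamini-Hochberg adjusted p under 0.1), and nothing is read from the members' count beside that share. The median log2 difference of all genes was 0.33, and members should be read against it. With TMM factors that median was 0.04 and the calls split into 5389 higher and 4595 lower in cortex, against 9868 and 2688 with plain library sizes.

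**Figure D1:**
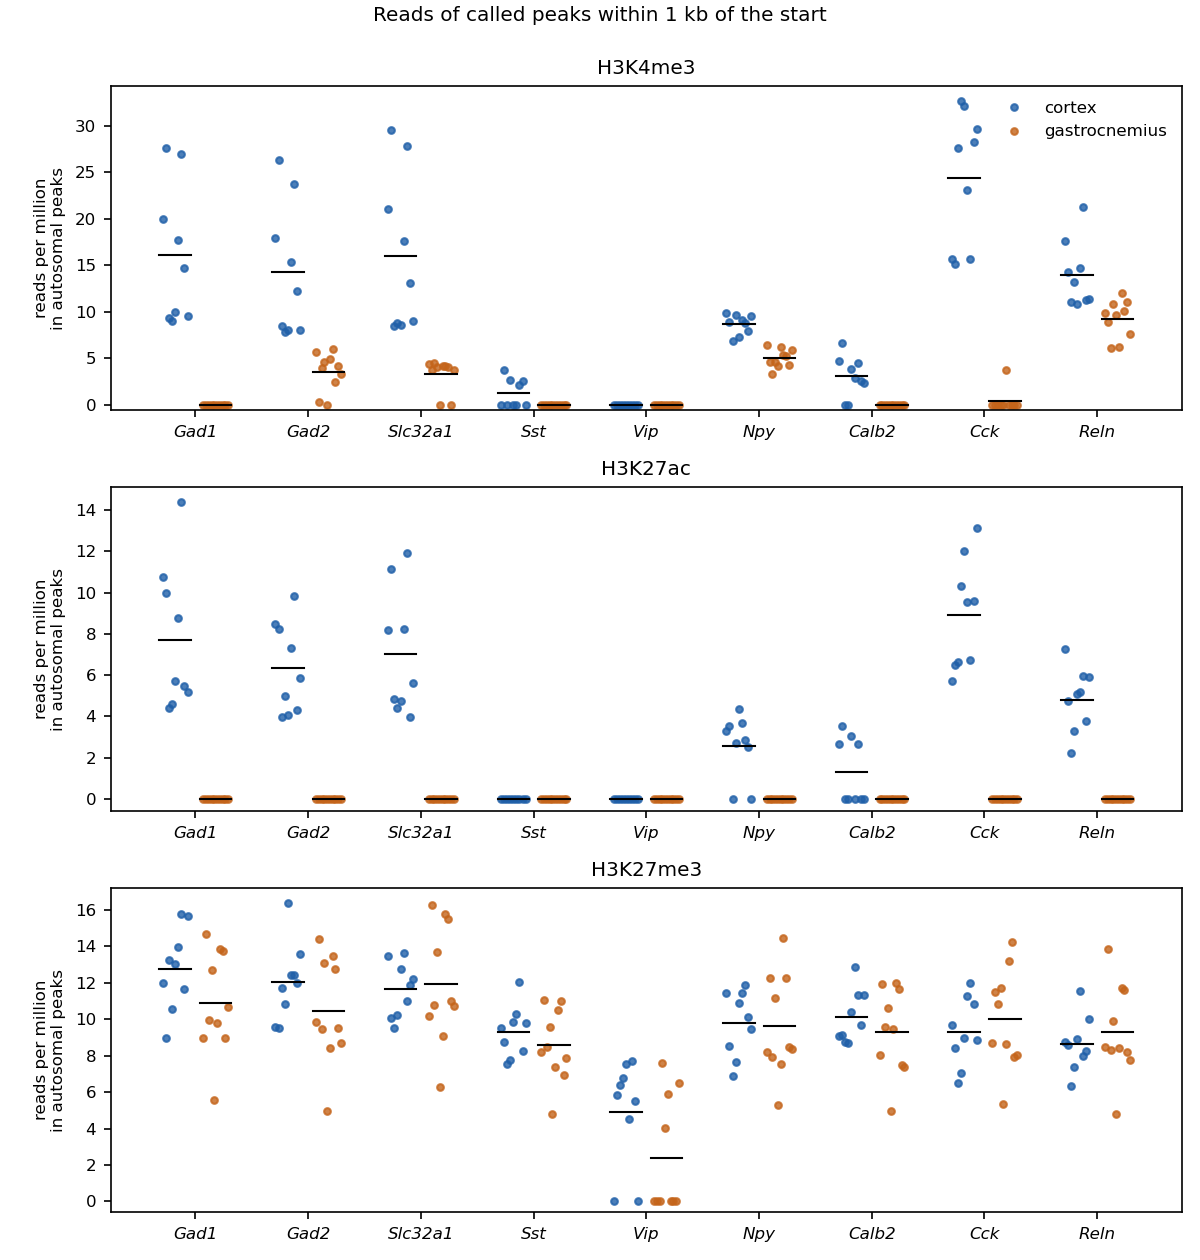
RPM in called peaks within 1 kb of the start of each of the 9 genes, 1 panel per mark, with 1 point per library (9 cortex, 10 gastrocnemius) and a bar at the mean of each tissue. Points at 0 are libraries without a called peak. H3K27ac is at 0 in every gastrocnemius library, while H3K27me3 overlaps between the tissues for every gene.

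Among the genes of GABA production, Gad1 had an H3K4me3 peak in all 9 cortex libraries, at 9.04, 14.7 and 27.6 RPM (lowest, median and highest), and in 0 of 10 gastrocnemius libraries (edgeR adjusted p = 1.51e-09). Gad2 gave 7.87, 12.3 and 26.4 RPM in cortex and 0, 4.09 and 5.95 RPM in gastrocnemius, where 9 of 10 libraries had a peak. Its log2 difference was 2.01 ± 0.47 (SE; 95% interval 1.03 to 2.99, edgeR adjusted p = 0.000899), and the tissues did not overlap. Slc32a1 ran at 8.48, 13.2 and 29.6 RPM in cortex and at 0, 4.08 and 4.50 RPM in gastrocnemius, with a peak in 8 of 10 libraries. The log2 difference was 2.28 ± 0.51 (95% interval 1.23 to 3.34, edgeR adjusted p = 0.000579). Gad2 and the vesicular transporter thus had H3K4me3 in most muscle libraries, and Gad1, the other glutamate decarboxylase, had none at its start there.

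The neuropeptide genes ranged from the highest H3K4me3 level of the list to none. Cck had a peak in 9 of 9 cortex libraries, at 15.1, 27.6 and 32.7 RPM, and in 1 of 10 gastrocnemius libraries. That library, replicate 6, held 3.76 RPM and is 1 of those with a run number in its deposited name. The log2 difference of 5.91 ± 0.76 (edgeR adjusted p = 7.98e-07) rests on it, and without it no gastrocnemius library has a peak to compare. Npy gave 6.91, 8.94 and 9.88 RPM in cortex and 3.32, 4.93 and 6.43 RPM in gastrocnemius, with a peak in every library of both tissues and no overlap. Its log2 difference was 0.79 ± 0.14 (95% interval 0.50 to 1.09, edgeR adjusted p = 6.38e-05), and 0.49 with TMM factors. Sst was near the detection limit, with peaks in cortex replicates 2, 4, 7 and 8 only, at 3.76, 2.63, 2.18 and 2.59 RPM, and in no gastrocnemius library. The edgeR test called Sst (adjusted p = 0.00518), whereas Fisher's exact test on the number of libraries with a peak did not (adjusted p = 0.302). With the mouse as a block, since 9 mice gave both tissues, edgeR did not call Sst either (adjusted p = 0.185).

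Calb2 also lay close to that limit, with peaks in 7 of 9 cortex libraries, at 0, 2.84 and 6.63 RPM (lowest, median and highest), and in 0 of 10 gastrocnemius libraries (edgeR adjusted p = 0.000127). Reln stood between these patterns. Every library of both tissues had a peak, at 10.9, 13.2 and 21.3 RPM in cortex and 6.16, 9.76 and 12.03 RPM in gastrocnemius, and the tissues overlapped. The log2 difference of 0.60 ± 0.15 (95% interval 0.28 to 0.91, edgeR adjusted p = 0.00203) fell to 0.27 with DESeq2 size factors, where it missed the threshold (adjusted p = 0.103).

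Groups did not overlap, with every cortex library higher, at Gad1, Gad2, Slc32a1, Npy and Cck, and 17.9% of all tested genes showed this. On the presence of a peak alone, Fisher's exact test called Gad1, Calb2 and Cck, as it did 5.11% of the 17248 genes with at least 1 peak. Since Gad1, Calb2 and Cck entered through cortex only, nothing is read from these counts beside the shares. With every missing peak entered at the lowest peak density of its library, the differences were smaller where muscle had no peaks. Gad1 was then 5.91-fold higher in cortex, Cck 8.73-fold, Slc32a1 4.12-fold and Gad2 3.72-fold, Calb2 was 1.34-fold higher and still called (edgeR adjusted p = 0.0293), and Sst was no longer called (0.951-fold, adjusted p = 0.568).

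Libraries whose deposited names carry a sequencing run number (2 cortex and 4 gastrocnemius per mark) were also fitted apart from the others. Among libraries without a run number, 8 members were called higher in H3K4me3, as were 9525 of 16482 genes, and the log2 differences of Gad2, Slc32a1, Npy and Reln were 2.01, 2.07, 0.81 and 0.61. In the small set with a run number, where a peak in at least 2 libraries of a tissue was required in place of 3, 3 of 7 were called higher (Gad1, Calb2 and Cck, which entered through cortex only), as were 3291 of 16501 genes, and the corresponding log2 differences of the 4 genes above were 1.71, 2.47, 0.77 and 0.39.

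H3K4me3 peaks at Gad2 and Slc32a1 had a larger median width in cortex than in muscle, where Gad1 had none at its start. The median width of the peak at the start was 12.2 kb at Gad1, 11.4 kb at Slc32a1 and 9.0 kb at Gad2 in cortex, and 2.6 kb at Gad2 and 2.5 kb at Slc32a1 in the muscle libraries that had one, with ranges of 1.2 to 4.2 kb and 1.2 to 7.4 kb. Reln measured 5.8 kb against 3.3 kb, and Npy 2.4 kb against 1.4 kb. Cck reached 6.0 kb in cortex, whereas the faint peaks of Sst and Calb2 measured 1.5 and 1.4 kb. For scale, the median autosomal H3K4me3 peak of a library was 2000 to 2600 bp wide in cortex and 2200 to 3400 bp in gastrocnemius. Over the gene body the same 8 members were tested and called higher in cortex, where 37.0% of all 17542 genes tested were, but Gad1, Sst, Calb2 and Cck again had too few muscle peaks (at most 2 libraries) to enter through gastrocnemius. The body of Cck held 61.2 ± 21.9 RPM in cortex (mean ± SD, n = 9), that of Gad1 64.4 ± 32.3, that of Gad2 46.3 ± 24.4 and that of Slc32a1 39.98 ± 21.1. In gastrocnemius (n = 10) the same bodies held 0.423 ± 1.34, 0.711 ± 1.502, 4.10 ± 2.06 and 3.71 ± 3.42 RPM.

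**Figure D2:**
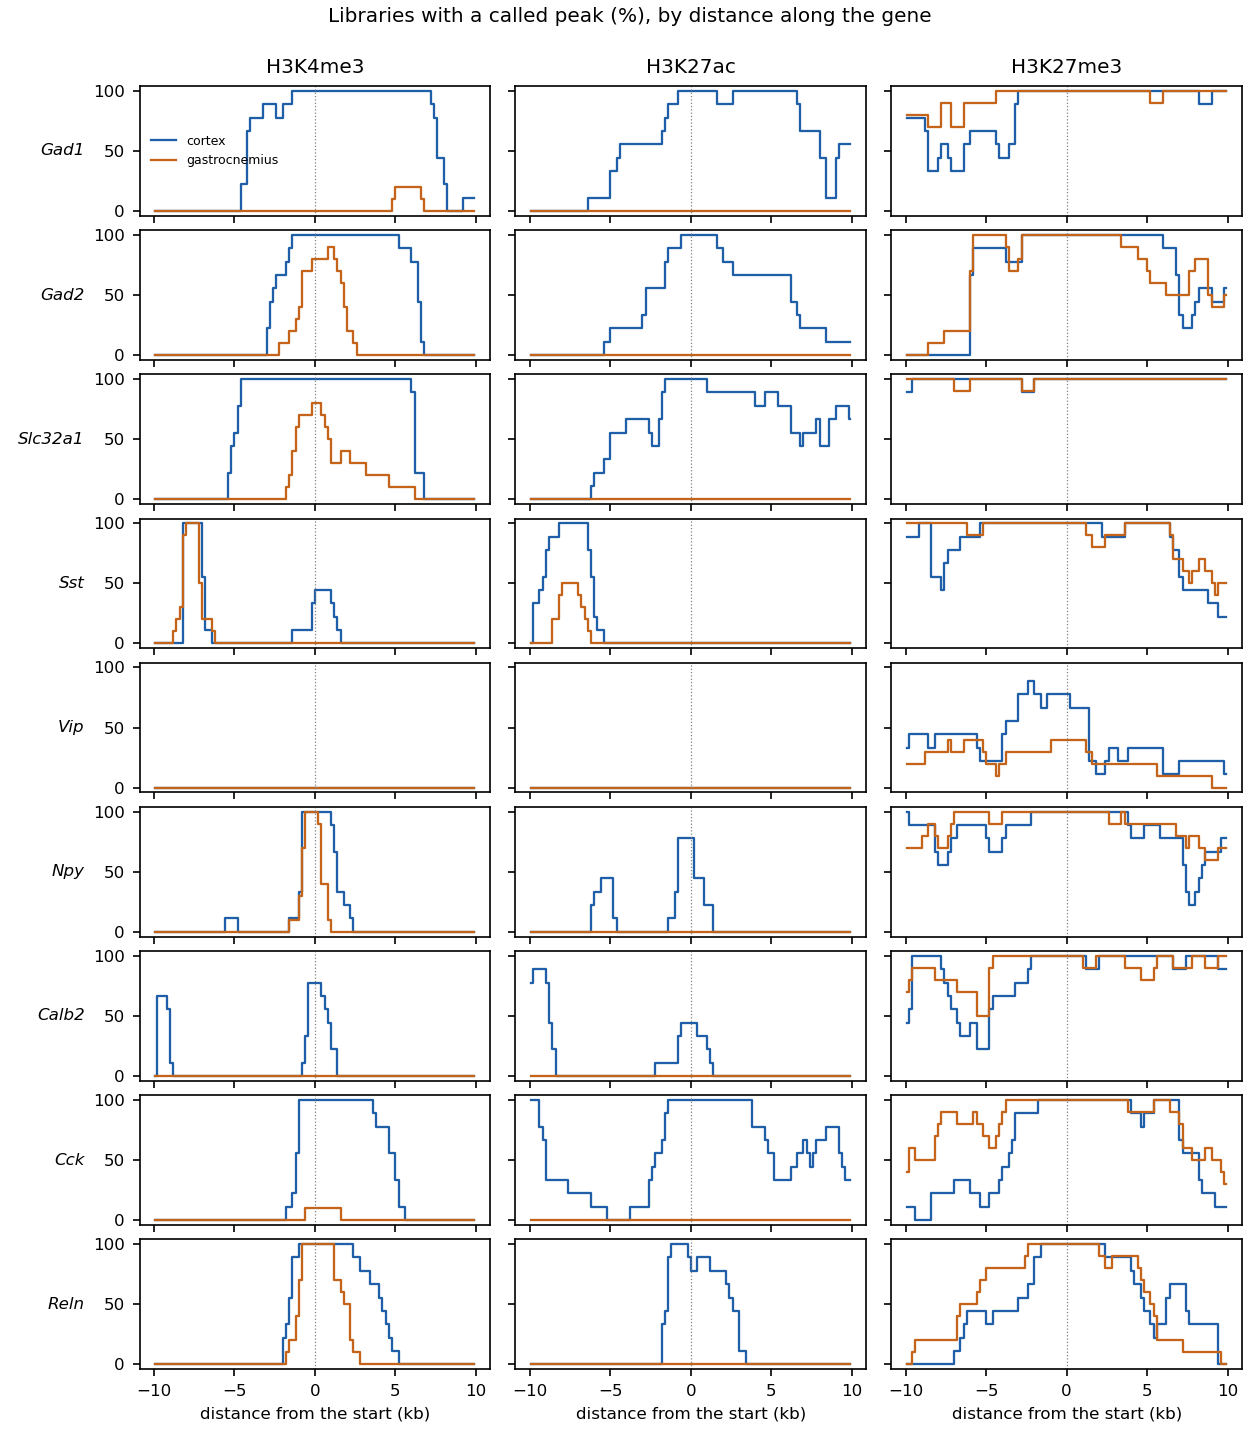
Share of libraries (%) with a called peak at each distance from the start, from 10 kb before to 10 kb after it in the direction of transcription, for each gene (rows) and mark (columns), cortex in blue and gastrocnemius in orange. H3K4me3 spans several kb around Gad1, Gad2 and Slc32a1 in every cortex library. In gastrocnemius it is mostly narrower at Gad2 and Slc32a1 and missing at the start of Gad1, where the nearest peak lies 4.87 kb away. H3K27me3 covers the start in every library of both tissues at all genes but Vip.

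H3K27ac at the start was found in cortex alone. None of the 9 members had an H3K27ac peak at the start in any of the 10 gastrocnemius libraries, and 7 had one in cortex. Gad1, Gad2, Slc32a1, Cck and Reln had it in 9 of 9 cortex libraries, Npy in 7, Calb2 in 4, and Sst and Vip in 0. The 7 entered the test through cortex alone, so higher in cortex was the only direction in which they could be called. The edgeR adjusted p ran from 4.20e-10 for Cck to 0.00441 for Calb2, and 49.7% of the 18354 genes tested were called higher, a share that nothing is read against. With the mouse as a block Calb2 was not called (edgeR adjusted p = 0.107). With no muscle peak at any member, non-overlap means only a peak in every cortex library, which 5 members had, and 14.5% of tested genes did not overlap with cortex higher. Fisher's exact test called 6, all but Calb2 (adjusted p = 0.207), and 9.45% of genes with a peak, and nothing is read from these counts either.

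Cck had the highest median of the list for H3K27ac as it had for H3K4me3, at 5.71, 9.57 and 13.1 RPM in cortex. Gad1 held 4.41, 5.72 and 14.4 RPM, Slc32a1 3.96, 5.64 and 11.9 RPM, and Gad2 3.996, 5.87 and 9.83. Reln held 2.22, 5.08 and 7.26 RPM. The cortex ranges of these 5 genes overlap one another. With missing peaks entered at the lowest density the members stayed higher in cortex, from 4.45-fold for Cck and 3.96-fold for Gad1 down to 1.60-fold for Npy and 1.31-fold for Calb2.

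Nearest H3K27ac peaks in muscle were far from most members. The median distance from the start to the nearest gastrocnemius H3K27ac peak was 51.9 kb for Gad1, 122 kb for Gad2, 41.6 kb for Reln and 214 kb for Npy, and 13.2 kb for Slc32a1 and 16.9 kb for Cck. At Sst, which had no H3K27ac at its start, every cortex library had an H3K27ac peak 5.36 to 6.36 kb away on the upstream side. At this upstream site of Sst, H3K27ac was called in 100% of cortex and 50% of gastrocnemius libraries, and H3K4me3 in 100% of both. Vip had neither active mark close by. Its nearest cortex peak lay 41.6 to 87.8 kb away for H3K4me3 and 40.6 to 87.2 kb away for H3K27ac.

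Over the gene body 7 members were tested for H3K27ac and called higher in cortex, as were 40.3% of 19357 genes. All but Reln had no body peak in any gastrocnemius library, so their direction was fixed by how they entered the test. At Gad1 it filled a median of 30.3% of the 39.9 kb gene in cortex, with a range from 14.2% to 80.4%. Over Reln 6 of 10 gastrocnemius libraries had a peak, and the body held 10.4 ± 5.73 RPM in cortex (n = 9) and 2.02 ± 1.78 RPM in gastrocnemius (n = 10; log2 difference 2.37 ± 0.83, edgeR adjusted p = 0.0165). With the mouse as a block this difference was not called (adjusted p = 0.107). Body differences depend on how a missing peak is entered. With the lowest peak density spread over the whole gene, the differences of Gad2, Npy and Reln in H3K27ac and of Calb2 in H3K4me3 turned to lower in cortex and were called that way. Those of Gad1 in both marks, of Sst in H3K4me3 and of Calb2 in H3K27ac were no longer called.

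H3K27me3 at the start was found in both tissues, and no member passed the test of a difference. Gad1, Gad2, Slc32a1, Sst, Npy, Calb2, Cck and Reln had an H3K27me3 peak in all 9 cortex and all 10 gastrocnemius libraries, 8 of 9 members, whereas 7.82% of all 26089 genes did. In those 8 the peak covered 100% of the start window in every library. Vip had a peak in 7 of 9 cortex and 4 of 10 gastrocnemius libraries. None of the 9 was called by edgeR, against 42.9% of 9422 genes in either direction, and at an unadjusted p under 0.05 none was either. DESeq2 and limma called 0 of 9 too, while edgeR with TMM factors called Gad1 (log2 difference 0.23) and Gad2 (0.22) higher in cortex, and with DESeq2 size factors Gad1 alone (0.17). Fisher's exact test called 0 of 9, against 22.1%, and the tissues overlapped at all 9, against 8.86% of tested genes without overlap.

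Levels of H3K27me3 at the start lay within a narrow range across the 8 members. Gad1 held 8.94, 13.0 and 15.8 RPM in cortex and 5.54, 10.3 and 14.7 RPM in gastrocnemius, a log2 difference of 0.26 with a 95% interval from -0.07 to 0.59. Slc32a1 held 9.52, 11.9 and 13.6 RPM against 6.27, 10.9 and 16.2 RPM, with a log2 difference of -0.01 and an interval from -0.33 to 0.31. The intervals of the other 6 members with a peak in every library all include 0 and reach from -0.44 at their lowest to 0.58 at their highest. Vip, at up to 7.69 RPM in cortex and 7.59 RPM in gastrocnemius, has a far wider interval of -1.51 to 3.55. The level was 0 in cortex replicates 1 and 9 and in 6 gastrocnemius libraries.

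H3K27me3 domains reached well past the start. The median width of the peak or peaks at the start was 37.4 kb in cortex and 38.8 kb in gastrocnemius for Slc32a1, 18.8 and 20.9 kb for Gad1, 18.4 and 17.4 kb for Calb2, 16.2 and 20.8 kb for Sst, 14.4 and 17.2 kb for Npy, 12.8 and 11.4 kb for Gad2, 11.6 and 15.2 kb for Cck and 6.6 and 11.5 kb for Reln. Slc32a1 lay inside H3K27me3 over its whole length in every library, and Sst over at least 98.4% of it. The widest of these domains, 114 kb at Slc32a1, was in a gastrocnemius library.

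For each mark, 9 mice gave a cortex library and 10 a gastrocnemius library, which allows the marks to be compared within a mouse and tissue. In cortex H3K4me3 and H3K27me3 peaks lay together at the start in 9 of 9 mice for Gad1, Gad2, Slc32a1, Npy, Cck and Reln, in 7 for Calb2, in 4 for Sst and in 0 for Vip. Genes with both marks in every cortex library made up 6.67% of all genes. With H3K27ac required as well in every cortex mouse, 5 members remained (Gad1, Gad2, Slc32a1, Cck and Reln), against 4.53% of all genes. In gastrocnemius the pair was found in 10 of 10 mice for Npy and Reln, 9 for Gad2, 8 for Slc32a1, 1 for Cck and 0 for the others, and 6.39% of all genes had the pair in every gastrocnemius library. Wherever an H3K4me3 peak was called at a member's start, H3K27me3 covered 100% of its bases within the window in the same mouse. This had to be so, because H3K27me3 covered the whole window in every library at all members but Vip. Nothing further is read from it.

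Reln was the only member called for H3K27me3 over the gene body. Its 460 kb held 107, 219 and 360 RPM in cortex and 26.1, 77.5 and 174 RPM in gastrocnemius, a log2 difference of 1.32 ± 0.32 (95% interval 0.65 to 1.99, edgeR adjusted p = 0.00242). Of the 10965 genes tested, 28.4% were higher in cortex. The tissues overlapped, since cortex replicates 1, 6 and 7 (107, 130 and 118 RPM) lay below gastrocnemius replicates 1 and 5 (162 and 174 RPM). Per kb of gene the level is low, because peaks covered a median of 14.4% of Reln in cortex and 4.5% in gastrocnemius. At the other members the bodies overlapped. Calb2, for example, held 104.4 ± 10.95 RPM in cortex (n = 9) and 102 ± 20.5 RPM in gastrocnemius (n = 10). With the mouse as a block Vip was called as well (log2 difference 4.25, edgeR adjusted p = 0.0573).

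**Figure D3:**
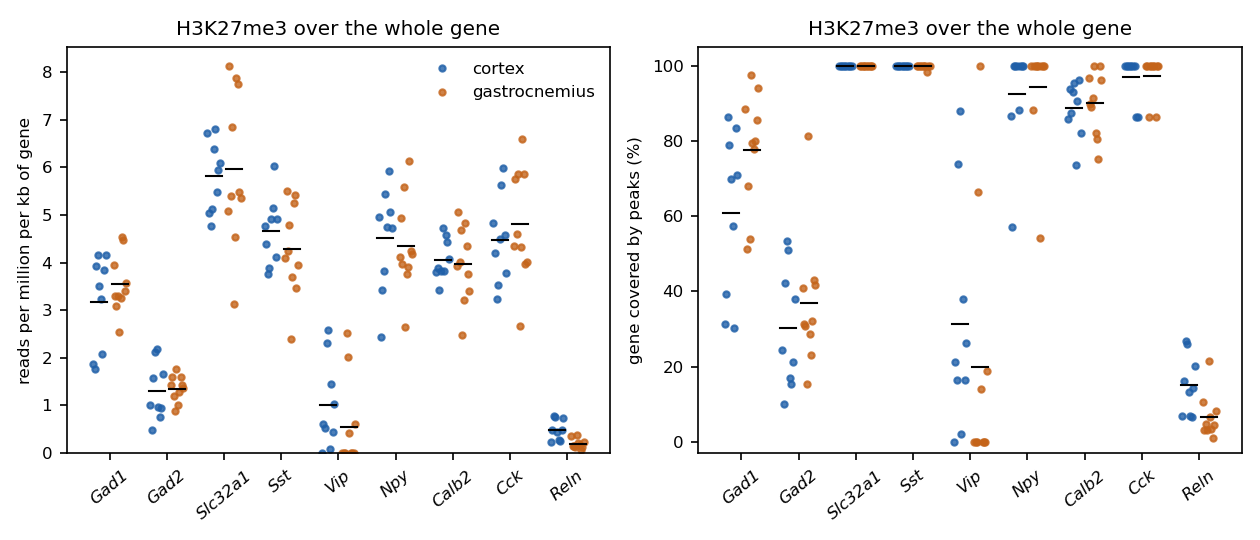
H3K27me3 over the whole gene for each of the 9 genes, as RPM per kb of gene (left) and as the percentage of the gene covered by called peaks (right), with 1 point per library and a bar at the mean of each tissue (9 cortex, 10 gastrocnemius). Slc32a1 is covered over its full length and Sst over at least 98.4% in every library, while Gad1, Gad2 and Reln vary widely among the cortex libraries.

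The cortex libraries differed strongly from one another at the GABA genes, and the 3 genes moved together. Gad1 H3K4me3 at the start was 27.6, 26.99 and 19.95 RPM in replicates 2, 7 and 1, 17.7 and 14.7 RPM in replicates 6 and 8, and 10.03, 9.56, 9.39 and 9.04 RPM in replicates 5, 9, 3 and 4. Gad2 and Slc32a1 followed the same division, with 26.4 and 29.6 RPM in replicate 2 and 7.87 and 8.84 RPM in replicate 4. The highest library exceeded the lowest 3.06-fold at Gad1, 3.35-fold at Gad2 and 3.49-fold at Slc32a1. At Cck, Reln and Npy it did so 2.16-fold, 1.96-fold and 1.43-fold.

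Cck ran the other way. Its lowest H3K4me3 levels, 15.1, 15.7 and 15.7 RPM, were in replicates 2, 7 and 1, and its highest, 32.7 and 32.2 RPM, in replicates 4 and 5. H3K27ac of Gad1 at the start showed the same libraries at the top, with 14.4, 10.8 and 9.98 RPM in replicates 7, 1 and 2 and 8.78 RPM in replicate 6, against 4.41 to 5.72 RPM in the other 5. Over the body of Gad1 H3K27ac spread from 15.9 RPM in replicate 4 to 123 RPM in replicate 2. H3K27me3 over that body was lowest in replicates 2, 1 and 7 (70.1, 74.8 and 83.2 RPM) and 129 to 166 RPM in the others. At the Gad1 start it was 8.94, 12.01 and 15.8 RPM in those 3 libraries, from the lowest to the highest of the cortex range. Those 3 were also the shallowest H3K27me3 cortex libraries. Replicates 2, 1 and 7 held 5.14, 4.52 and 4.56 M reads in peaks, against 5.21 to 7.32 M in the others. The part of depth in the body levels was not tested.

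**Figure D4:**
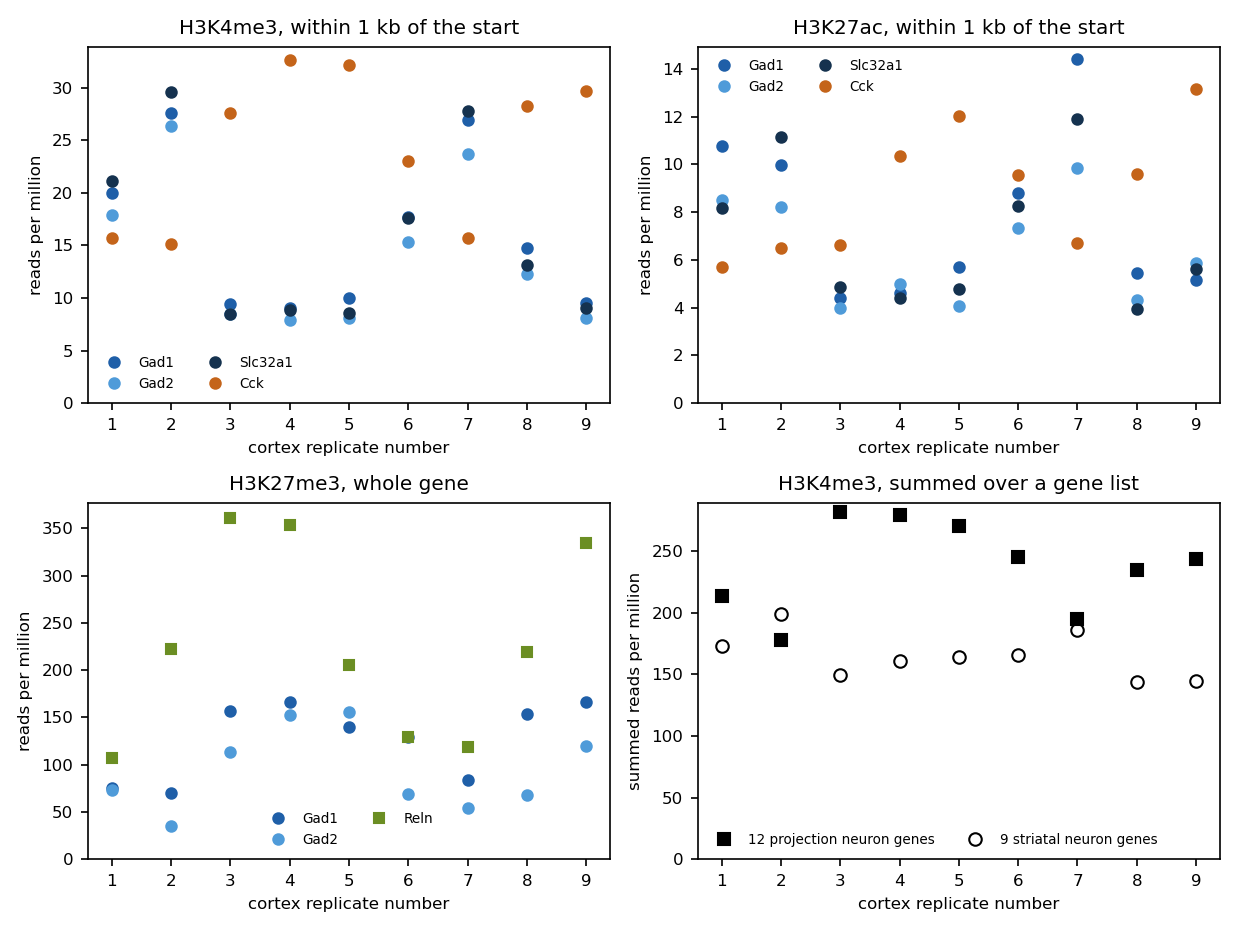
Cortex libraries by replicate number, which marks the same mouse in all marks, with RPM at the start for H3K4me3 (upper left) and H3K27ac (upper right), over the whole gene for H3K27me3 (lower left), and H3K4me3 at the start summed over 2 gene lists (lower right). Replicates 1, 2 and 7 are high at Gad1, Gad2 and Slc32a1 and low at Cck, at H3K27me3 over Gad1 and at the projection neuron genes.

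Genes of other neurons varied in the same libraries. The 12 projection neuron genes, markers of excitatory cortical cells, summed to 178, 195 and 214 RPM of H3K4me3 in replicates 2, 7 and 1 and to 235 to 282 RPM in the other 6, with all 12 carrying a peak in each. A list of 9 genes of striatal projection neurons, which are GABAergic cells of the tissue below the cortex, summed to 199, 186 and 173 RPM in replicates 2, 7 and 1 and to 144 to 166 RPM in the others. For H3K27ac the same lists did not separate these libraries. The projection neuron genes summed to 69.0, 90.1 and 83.6 RPM in replicates 2, 7 and 1 and to 83.5 RPM in replicate 8, and the striatal genes to 66.4, 83.3 and 69.7 RPM, against 70.8 RPM in replicate 6 and 67.4 RPM in replicate 9. Of the striatal genes, Six3 H3K4me3 was 20.9, 21.0 and 18.3 RPM in replicates 2, 7 and 1 and 4.56 to 13.7 RPM elsewhere. Drd1 was 17.2 to 19.9 RPM in those 3 libraries and 10.3 to 16.7 RPM elsewhere. Drd2 was 7.45 to 7.97 RPM there and 0 to 4.78 RPM elsewhere. Pde10a ran the other way, at 29.7 to 30.8 RPM in those 3 libraries and 34.9 to 45.2 RPM elsewhere. The remaining striatal genes overlapped between those libraries and the others. That striatal list was chosen after the data were seen, and the part of other neurons in the levels of Gad1, Gad2 and Slc32a1 was not tested. With replicates 1, 2 and 7 left out together, 7 members were tested and called higher for H3K4me3 at the start, as were 8803 of 16659 genes, and 6 for H3K27ac, as were 7661 of 18165 genes. The 6, and Gad1, Calb2 and Cck for H3K4me3, entered through cortex only, while the members with peaks in both tissues had log2 differences of 1.501 for Gad2, 1.73 for Slc32a1, 0.75 for Npy and 0.39 for Reln in H3K4me3. Sst for H3K4me3 and Calb2 for H3K27ac then had too few peaks to be tested.

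Only Gad1 and Slc32a1 shared their start with another annotated gene. Gad1os, whose start is 1.23 kb downstream of that of Gad1, lay in the same H3K4me3 peak in 9 of 9 cortex libraries and in the same H3K27me3 peak in all 19 libraries. Gm14204 starts 0.035 kb upstream of Slc32a1 and shared its peaks equally, so reads at these starts cannot be divided between the 2 genes of a pair. Arhgap40, 98.0 kb from Slc32a1, and Mir3967, 32.0 kb from Gad2, each fell in the H3K27me3 peak of the member in 1 gastrocnemius library. The next gene beyond Slc32a1, Actr5 at 14.2 kb, carried H3K4me3 at 31.8 RPM in cortex and 34.0 RPM in gastrocnemius. Actr5 had no H3K27me3 peak at its start in cortex, but 5 of 10 gastrocnemius libraries had a peak there (mean 1.57 RPM). Other nearest starts lay farther away and outside the members' peaks. They were Erich2 for Gad1, Myo3a for Gad2, Rtp4 and Rtp2 for Sst, Myct1 and Fbxo5 for Vip, Stk31 and Mpp6 for Npy, Tle7 and Cmtr2 for Calb2, Trak1 and Lyzl4os for Cck, and Slc26a5 and Gm15421 for Reln.

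Likeness over the whole data was measured as the root mean square difference of log2(RPM + 1) at the start across all 57 libraries, leaving out genes within 100 kb. Gad2 and Slc32a1 were most alike among the members, at 0.44, and Gm14204 came next for Gad2. Slc32a1 had Gm45623 as its nearest gene (0.37), Gad1 had Gpr139 (0.35) and Adamts16 (0.39), and Cck had Syt13 (0.35) and Galnt9 (0.37). Npy was nearest to Pik3ap1 (0.22) and Moxd1 (0.34), and Reln to Pld5 and Mcidas (both 0.32). Sst was nearest to Ferd3l (0.37) and Kcnk15 (0.44), Calb2 to Crhbp (0.51) and Igfbpl1 (0.54), and Vip, which has few peaks, to Cma1 (0.62) and Gzmc (0.65).

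Genes of GABA handling, members among them, were mostly higher in cortex for the active marks. Of 11 genes for GABA synthesis, transport and breakdown, which include Gad1, Gad2 and Slc32a1, 9 were higher and none lower in cortex for H3K4me3, with a median log2 difference of 2.01 beside 0.33 for all genes. That median is the value of Gad2 itself. For H3K27ac 8 of 10 tested were higher and none lower. Both counts include the members and are not separate from them. Over all genes 59.0% were higher in cortex for H3K4me3 and 49.7% for H3K27ac, and for H3K27me3 1870 of 9422 were higher and 2173 lower, which holds for each list described here. Slc6a11, a GABA transporter of astrocytes, had H3K4me3 in 9 cortex and 0 gastrocnemius libraries (11.9 ± 2.16 RPM, n = 9). Abat, which breaks GABA down, carried H3K4me3 in all 19 libraries, and had H3K27me3 in 0 of 9 cortex and 8 of 10 gastrocnemius libraries. It and Slc6a11 (log2 difference -2.35, edgeR adjusted p = 0.0592) were the 2 of 8 tested that were lower in cortex for H3K27me3, the direction in which no member was called.

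Further subtype genes showed both directions. Of 15 such genes, 12 were tested for H3K4me3, 10 were higher and 2 lower in cortex, with a median log2 difference of 1.32. Calb1, which encodes calbindin (20.6 ± 1.83 RPM, n = 9), and Adarb2 (11.4 ± 4.10 RPM) had H3K4me3 in every cortex library and in no gastrocnemius library. Pvalb, which encodes parvalbumin of fast-spiking interneurons and of fast muscle fibres, was the reverse, with 13.4 ± 4.76 RPM in 10 of 10 gastrocnemius libraries and no H3K4me3 peak in cortex. For H3K27ac 9 of 13 were higher and 2 lower. Adarb2, Calb1 and Lamp5 had H3K27ac in 9, 8 and 9 of 9 cortex libraries and in no gastrocnemius library. Pvalb had H3K27ac in 8 of 9 cortex and 10 of 10 gastrocnemius libraries, at means of 1.43 and 8.03 RPM. For H3K27me3 4 of 14 were higher and 1 lower. Sncg and Nos1 had it in 9 and 8 cortex libraries and in no gastrocnemius library, and Pvalb held 10.5 ± 3.32 RPM in cortex (n = 9) and 2.76 ± 3.11 RPM in gastrocnemius (n = 10), a log2 difference of 1.87 (edgeR adjusted p = 0.0739).

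Transcription factors of interneuron development carried both H3K4me3 and H3K27me3 in most cortex libraries. Of 16 factors, 13 had the pair in every cortex library. For H3K4me3 6 were higher and 6 lower in cortex, with a median log2 difference of 0.18. Npas1 (2.72) and Dlx5 (1.72) were among those with the largest differences. Dlx5 and Dlx6 had H3K27ac in 9 of 9 cortex and 0 of 10 gastrocnemius libraries. For H3K27me3 6 of 15 were higher and 1 lower, beside 1870 and 2173 of 9422 for all genes, led by Satb1 (-2.87), Sox6 (1.03) and Nr2f2 (0.62).

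The 12 projection neuron genes were also mostly higher in cortex for the active marks. For H3K4me3 11 were higher and none lower in cortex, and for H3K27ac 12 of 12 were higher, beside 59.0% and 49.7% of all genes. The median log2 difference for H3K4me3 was 1.93, beside 0.33 for all genes. Camk2a, Neurod6 and Slc17a6 had H3K4me3 in 9 cortex and 0 gastrocnemius libraries, and Bcl11b and Neurod6 had H3K27ac in 9 and 0. H3K4me3 and H3K27me3 lay together in every cortex library at 9 of these 12 genes. For H3K27me3 none was higher and 2 were lower, Cux2 (-5.25) and Rorb (-1.68). No test of the members against this list was made.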

How the data were processed

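The ChIP-seq peak tables held, per library, the number of reads in each called peak (ChIPCount, a count) and a score, as the authors deposited them. Per the labels and methods, reads were aligned to mm10 with BWA, filtered with SAMtools and called with epic2 in each library, with wider gaps allowed for H3K27me3. The epic2 version and the use of input libraries were not given in the sources used here. The deposited score served only to leave out the lowest 25% of peaks in an alternative.

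Counts were shared with windows by overlap, which assumes an even density within a peak, rounded, and divided by the reads in autosomal peaks. Replicates are mice. By the codes in the deposited names 9 mice gave both tissues, although same-mouse or same-numbered libraries did not deviate together (correlation at most 0.0986 in 9 pairs per mark). Genes with a peak in at least 3 libraries of either tissue were tested with edgeR 4.0.16 (quasi-likelihood), without normalization factors, and calls with Fisher's exact test (two-sided), both with Benjamini-Hochberg adjustment over all genes and a threshold of 0.1. No fold is printed against a tissue without any peak, where the fitted difference depends on the prior count, unless missing peaks were entered at the lowest density. The edgeR step was tested on simulated data, where it recovered fewer changes for H3K27me3 than for the other marks. DESeq2 1.42.0 and limma 3.58.1 were alternatives. The members and gene lists were chosen with earlier results of these data known. Named are the 9 members, the called list genes with the 3 largest fitted differences per mark and list (a rank that the prior count sets where a tissue has no peak), genes starting in a member's peak or nearest to it, and the 2 genes most like each member. Some genes that this rule names are not reported here.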

Additional observations from a re-analysis of the deposited data

Results flagged for a closer look

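Of 78 groups of libraries that held at least 1 peak at a member, 2 had a library far from the others by Dixon's criterion. Chance alone marks about 1 group in 20 of spread values, but a lone called library among libraries entered at 0 always meets the criterion, so that rate does not apply here. Both are the same gene and mouse. Gastrocnemius replicate 6 had an H3K4me3 peak at Cck, with 3.76 RPM at the start and 4.23 RPM over the gene body, while the other 9 gastrocnemius libraries had none. Whether the other libraries hold reads there below the calling threshold was not tested.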

How the results depend on the processing

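Of 867 values recomputed for single members under the alternatives, 799 kept their direction and their side of the threshold, 15 lost the call, 6 gained one and 47 changed direction. Replicate 9 of H3K27ac in cortex and replicate 4 of H3K27me3 in gastrocnemius limit the depth, and leaving out the shallowest libraries changed no count of called members. Requiring a peak in every library left 2 members called for H3K4me3 at the start and 2 over the gene body, 0 and 0 for H3K27ac, where no member then remained to test, and 431 and 1813 genes called for H3K27me3 at the start and over the body. Leaving out the lowest-scoring 25% of peaks left 5 members called for H3K4me3 at the start, since Sst and Calb2 could not be tested and Npy lost its call while its log2 difference rose from 0.79 to 1.79 (edgeR adjusted p = 0.168). For H3K27me3, TMM factors called 2 members at the start and DESeq2 size factors 1. The whole ChIPCount of touching peaks, which follows peak width, called 1 member at the start (Cck, log2 difference -0.43) and 3 over the body (Reln, Cck and Calb2). Without run-numbered libraries Fisher's test called 1481 genes for H3K27me3, against 2585. With only run-numbered libraries and a peak in at least 2 libraries of a tissue in place of 3 (both chosen after the data were seen), 4608 genes and 3 members were called for H3K4me3 at the start, 6823 genes over the body, 2869 genes for H3K27ac at the start, 7685 genes and 4 members over the body, and 2016 and 3189 genes for H3K27me3. The cause was not tested, and both the libraries and the filter differ.

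Mouse codes pair the tissues by animal, whereas title numbers name the same mouse for 4 of 9. With the replicate block by number or mouse, Sst for H3K4me3 and Calb2 for H3K27ac at the start lost their calls (adjusted p = 0.194 and 0.185, and 0.107 for both), and with the mouse block Reln lost its call for H3K27ac over the body (adjusted p = 0.107), while 2 members were called for H3K27me3 over the body, Reln and Vip. The block changed no other member's call.

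Directions that changed are given as log2 differences. With missing peaks entered at the lowest density they were -0.073 for Sst H3K4me3 at the start, and over the body -1.83 for Calb2 H3K4me3, -1.20 for Gad2, -1.10 for Npy, -0.56 for Calb2 and -4.11 for Reln H3K27ac, and -0.78 for Vip H3K27me3. The rest concern H3K27me3 and, except Calb2 over the body with whole ChIPCounts, were called in neither setting. Whole ChIPCounts gave -0.10 for Gad1, -0.082 for Sst, -0.21 for Npy and -0.66 for Calb2 at the start, and 0.017 for Gad2, -0.082 for Sst, -0.23 for Npy and -0.45 for Calb2 over the body. Without run-numbered libraries the values were -0.029 for Gad2, -0.049 for Sst, -0.17 for Npy and -0.083 for Calb2 at the start and -0.047 for Sst, -0.12 for Npy and -0.16 for Calb2 over the body. With only run-numbered ones they were 0.39 for Slc32a1, -0.56 for Vip, 0.41 for Cck and 0.32 for Reln at the start, and 0.32 for Gad1, 0.38 for Slc32a1, -0.038 for Vip and 0.16 for Cck over the body. Slc32a1 at the start moved to 0.0019 with DESeq2, 0.0030 with limma (pseudocount 1), 0.0017 with the replicate block by number and 0.022 without the shallowest libraries, and over the body to 0.0053 and 2.9e-05 with limma (pseudocounts 1 and 5) and 0.0077 with TMM. Npy at the start moved to -0.044 with DESeq2 size factors, -0.044 with reads in all peaks, -0.022 with the mouse block and -0.013 without cortex replicates 1, 2 and 7, and over the body to -0.052 with reads in all peaks and -0.031 with the mouse block, where Calb2 gave -0.062 and -0.017. Without those 3 cortex libraries the bodies of Gad1 and Gad2 gave 0.10 and 0.22.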
